A study of Homo sapiens with 6 samples.

Results

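The 9 genes described here, MDM2, TP53INP1, SESN1, SESN2, BTG2, GADD45A, DDB2, XPC and ZMAT3, are classical transcriptional targets of the tumor suppressor p53 other than CDKN1A. They were found by symbol among the 23368 gene symbols of each count table, and all 9 were listed and passed the filter on low counts that left 13209 genes for testing. RNA was sequenced from NB4, a cell line established from human acute promyelocytic leukemia and carrying the PML-RARA fusion, after 24 h without treatment (n.t., 3 libraries) or with 10 µM maltonis (3 libraries). Maltonis, a hydroxypyrone synthesized from the flavor compound maltol, was given from a stock in water at a concentration that the study chose as sublethal. Every library, treated or not, comes from this line. The genes were chosen by symbol with their log2 fold changes in this same comparison already known, so these values are given as a description without a test, and counts over them support nothing.

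p53 is a transcription factor that is held at a low level by the ubiquitin ligase MDM2, which is itself a p53 target and thereby closes a feedback loop. When DNA is damaged, kinases such as ATM and CHEK2 release p53 from MDM2, and its targets slow the cell cycle, repair DNA, adjust metabolism or start apoptosis. p53 binds pairs of a palindromic decamer, often close to or inside the genes it controls, and several of its targets also respond to other stress pathways, such as SESN2 and GADD45A to the amino acid and unfolded protein response factor ATF4. In the study, maltonis is described as an agent that interferes with chromatin structure and evokes a response resembling that to DNA damage.

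Promoter windows of 300 bases from RefSeq (GRCh38.p14), reaching from 250 bases before to 50 bases after a transcription start, were found for 7 of the 9 genes, with 14 windows in all. They were searched for the p53 consensus decamer and for a pair of decamers with 0 to 13 bases between them. The decamer is its own reverse complement, so that a search of 1 strand covers both. Inexact pairs were searched as well, at the looser setting given below. Matches are shown because they are places where the known binding pattern of p53 can be read near these genes. A further inexact pair of DDB2 is described but not shown. Capitals mark the decamers, lower case the bases around or between them.

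DDB2, chr11:47214975-47215003, + strand: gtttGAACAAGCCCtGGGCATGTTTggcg
MDM2, chr12:68808919-68808946, + strand: agctGGTCAAGTTCAGACACGTTCcgaa
SESN1, chr6:109009014-109009041, − strand: gtctGGACAAGTCTCCACAAGTCAgaaa

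The decamers of DDB2 lie 6 to 26 bases after the downstream of its 2 starts. They are 2 exact decamers with 1 base between them. Exact pairs were found in 10 of 35116 promoter windows in the table (0.0285%). The MDM2 sequence lies 94 to 75 bases before one of the downstream starts of the gene and departs from the consensus pair at 2 of 20 bases. The SESN1 sequence, 49 to 30 bases before the most downstream start, has an exact decamer followed by an inexact one, with 3 departures in all. An exact decamer alone was present in 6.63% of windows. With up to 3 departures and 0 or 1 base between the decamers, a setting chosen after the windows had been seen, 2.38% of windows held a pair. At this setting DDB2 held a further pair with 1 departure, from 5 bases before to 15 bases after its downstream start. That pair shares a decamer with the exact one. No such sequence was found in the windows of SESN2, BTG2, XPC and ZMAT3, which says only that these letters are not in these 300 bases.

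Depth ranged from 18492154 to 38205483 counts per library. A floor of 3 counts corresponds to 0.0828 to 0.16 CPM (counts per 1000000 counts, with library totals scaled by the trimmed mean of M-values, TMM), and covers counting error only. The myeloid markers MPO, CD33, SPI1, CEBPA, AZU1, PRTN3 and CSF3R summed to between 13991 and 16424 CPM in n.t. and between 8231 and 8692 CPM in maltonis-treated libraries, most of it MPO. MPO, CD33, SPI1 and CEBPA had lower means after maltonis, while AZU1, PRTN3 and CSF3R had higher ones. The erythroid, B cell and fibroblast markers summed to at most 3.25 CPM for each list, with HBB and MS4A1 at 0. The 3 T cell markers summed to 42.9 to 44.9 CPM in n.t. and 15.2 to 15.9 CPM after maltonis, nearly all of it CD3D, and the 3 epithelial markers to 16.0 to 17.6 and 10.2 to 12.8 CPM, from EPCAM, with CDH1 and KRT5 at 0. Their part in the results was not tested. In bulk RNA, fewer cells of a kind and less RNA per cell cannot be told apart.

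MDM2, the ubiquitin ligase that marks p53 for degradation, had the highest level of the 9 genes, also per exon length. It stood at 187, 179.9 and 181 CPM in n.t. replicates 1, 2 and 3 and at 227, 235 and 235 CPM in the maltonis-treated ones. All 3 maltonis-treated libraries lay above all 3 n.t. libraries, although the distance was small. The mean went from 183 ± 3.47 to 233 ± 4.60 CPM (SD, n = 3). The log2 fold change was 0.35 (standard error, SE, 0.0514), and 34.3% of the genes tested had a larger one. MDM4, a relative of MDM2 that binds and inhibits p53 without degrading it, moved the other way, from 33.4, 39.2 and 44.3 CPM to 27.2, 29.2 and 30.9 CPM, a log2 fold change of −0.42 (SE 0.108, edgeR FDR = 0.00655). PPM1D, the phosphatase that switches the damage response off again, rose from 33.1 ± 0.425 to 58.9 ± 2.66 CPM (SD, n = 3), with a log2 fold change of 0.83. Exons of MDM2 overlap those of CPM, the carboxypeptidase M gene on the opposite strand, over 133 bases in GENCODE 29. That gene had 18 to 38 counts in n.t. and 38 to 52 in maltonis-treated libraries, against 3503 to 7895 counts on MDM2. An antisense gene and a pseudogene share a further 785 and 439 bases with MDM2 exons, and an antisense gene shares 363 bases with those of SESN1.

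TP53INP1, which encodes a nuclear protein that takes part in the p53 stress response and in autophagy, had the largest change of the 9. The n.t. libraries held 44, 101 and 95 counts, or 2.34, 2.79 and 2.86 CPM. After maltonis they held 487, 1019 and 814 counts, or 25.1, 30.4 and 28.9 CPM. The lowest maltonis-treated library thus stood far above the highest n.t. library. The mean rose 10.6-fold, from 2.66 ± 0.281 to 28.1 ± 2.70 CPM (SD, n = 3), and the log2 fold change was 3.38 (SE 0.118). Among all genes tested, 1.39% had a larger log2 fold change. Its paralog TP53INP2, better known for autophagy than for p53, also rose, from 3.12 ± 0.734 to 13.2 ± 1.68 CPM (mean ± SD, n = 3), or by 2.08 in log2 (SE 0.179).

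**Figure D1:**
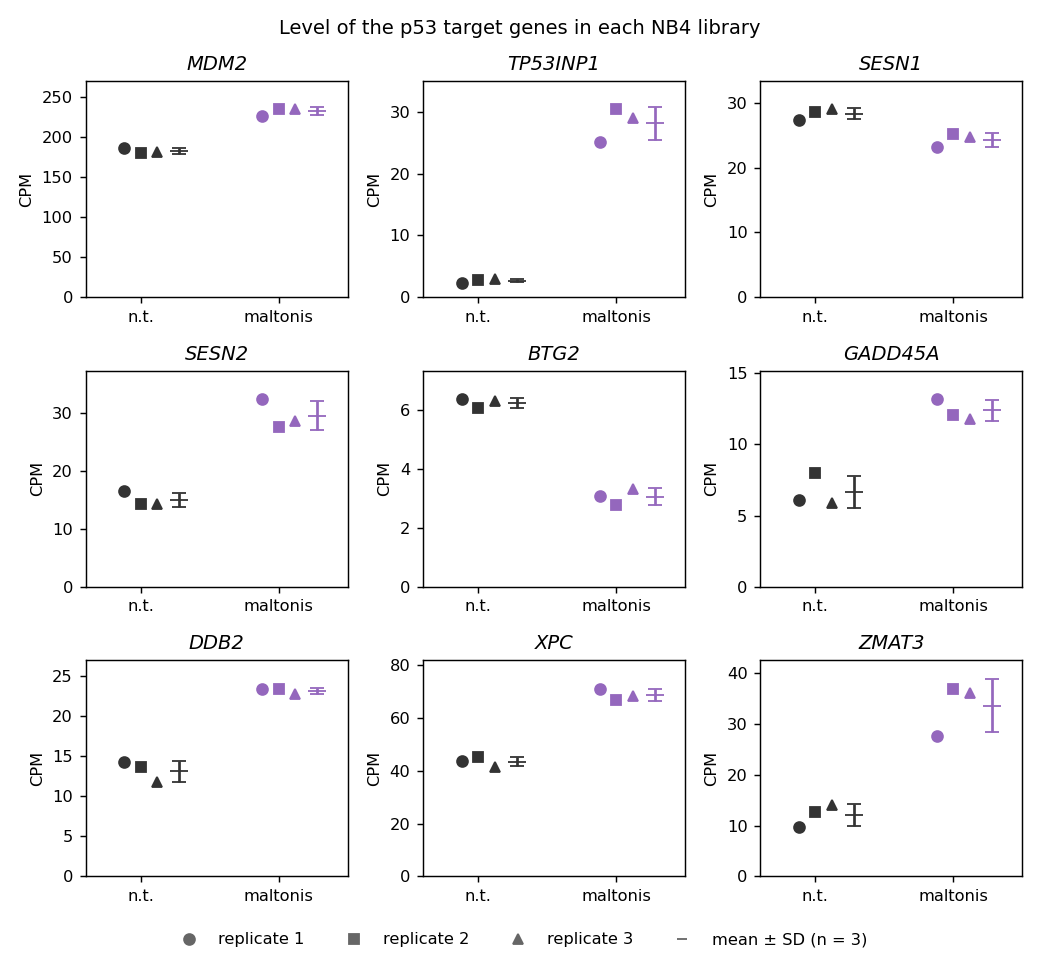
Level of each gene in CPM (vertical axes from 0) in the n.t. (black) and maltonis-treated (violet) libraries, with 1 marker per replicate and the mean ± SD (n = 3) beside them. TP53INP1 stands at 2.34 to 2.86 CPM without and 25.1 to 30.4 CPM with maltonis, while SESN1 and BTG2 are the genes whose maltonis-treated libraries lie below the n.t. ones.

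The sestrins are stress-induced proteins that restrain the growth kinase complex mTORC1, and SESN2 acts as its leucine sensor. SESN1 and SESN2 went in opposite directions. SESN1 stood at 27.3, 28.5 and 29 CPM in n.t. and at 23.1, 25.2 and 24.7 CPM in maltonis-treated libraries. These groups do not overlap, but the log2 fold change was only −0.22 (SE 0.0702), and SESN1 is the gene of the 9 that did not pass a false discovery rate (FDR) of 0.01. SESN2 stood at 16.5, 14.3 and 14.3 CPM without and at 32.5, 27.7 and 28.7 CPM with maltonis. Its mean rose from 15.0 ± 1.23 to 29.6 ± 2.52 CPM (mean ± SD, n = 3), or by 0.98 in log2 (SE 0.0941). On the scale of RPKM, which divides CPM by the exon length of the gene in kilobases, SESN1 was above SESN2 in n.t. cells, with 5.52 ± 0.171 against 4.35 ± 0.357, and below it after maltonis, with 4.75 ± 0.210 against 8.58 ± 0.730 (SD, n = 3). The replicates of the pair did not overlap in either group. SESN3, the sestrin controlled mainly by FOXO factors, rose from 43.9 ± 2.96 to 92.2 ± 1.68 CPM (mean ± SD, n = 3), or by 1.07 in log2.

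BTG2 and GADD45A both restrain proliferation. BTG2 is an antiproliferative protein that recruits the CCR4-NOT deadenylase to mRNA, and it was the gene of the 9 that fell beyond an FDR of 0.01. Its 120, 220 and 210 counts in n.t. libraries correspond to 6.39, 6.07 and 6.33 CPM, and its 60, 93 and 94 counts after maltonis to 3.10, 2.77 and 3.34 CPM. The groups are well apart, and the mean without treatment was 2.04 times that with it, for a log2 fold change of −1.03 (SE 0.118). BTG1, the closest paralog, went the other way, from 108 CPM to a level 1.94 times as high, with a log2 fold change of 0.95 (SE 0.137), while TOB1 of the same family rose by 0.91 and TOB2 fell by 0.35 on the log2 scale. BTG3 had a log2 fold change of −0.65 (edgeR FDR = 0.0103), just outside the threshold.

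GADD45A, a small protein that binds PCNA and the kinase MEKK4 and is involved in DNA repair and demethylation, stood at 6.12, 7.97 and 5.91 CPM in n.t. and at 13.2, 12.1 and 11.8 CPM in maltonis-treated libraries. Replicate 2 of the n.t. cells was the highest of its group, and the difference within replicate 2 was 0.60 on the log2 scale, against 1.11 and 1.00 within replicates 1 and 3. Over all libraries the log2 fold change was 0.88 (SE 0.131), the second largest standard error of the 9. GADD45B, which is better known as a target of NF-kB and TGF-beta, rose by 1.05 on the log2 scale (SE 0.102). GADD45G had 7, 7 and 4 counts in n.t. and 40, 76 and 50 counts in maltonis-treated libraries, a log2 fold change of 3.28 whose size is uncertain with n.t. counts this close to the floor.

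**Figure D2:**
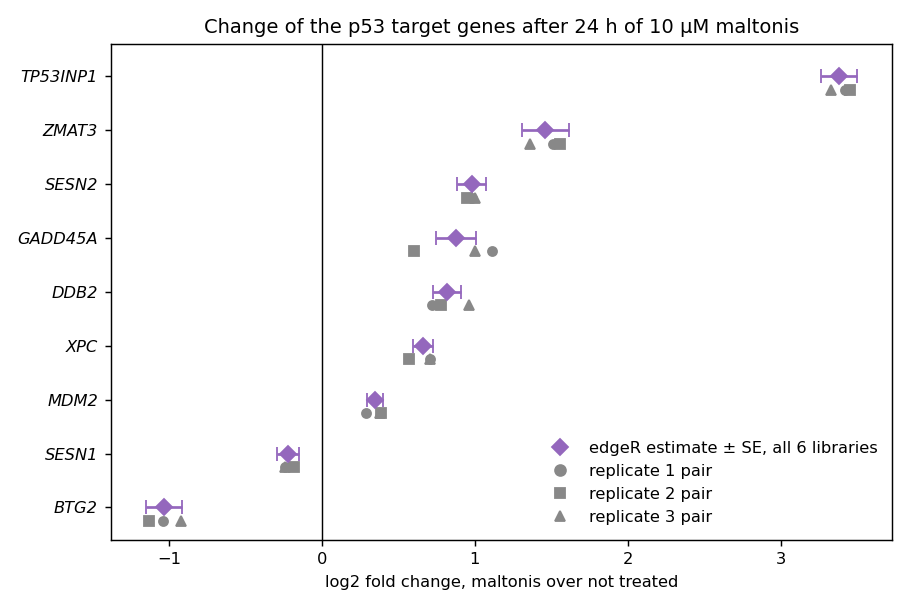
Log2 fold change of each gene, maltonis over n.t., as estimated by edgeR from all 6 libraries (violet diamonds, bars are ± 1 standard error) and as the difference within each replicate number (grey markers). TP53INP1 is at 3.38, SESN1 and BTG2 are below 0 in all 3 replicates, and the replicates of GADD45A lie furthest apart, from 0.60 to 1.11.

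DDB2 and XPC recognize damaged DNA at the start of global genome nucleotide excision repair, DDB2 as the part of a CUL4-DDB1 ubiquitin ligase that finds ultraviolet photoproducts and XPC as the sensor of distorted helices. Both rose. DDB2, with the exact pair of decamers shown above at its downstream start, stood at 14.2, 13.6 and 11.7 CPM in n.t. and at 23.4, 23.3 and 22.7 CPM in maltonis-treated libraries. The treated libraries were tight, with an SD of 0.363 around a mean of 23.1 CPM, and well above the n.t. mean of 13.1 ± 1.31 CPM (SD, n = 3). The log2 fold change of DDB2 was 0.82 (SE 0.0904). XPC stood at 43.7, 45.2 and 41.6 CPM without and at 71.2, 66.8 and 68.2 CPM with maltonis, and its log2 fold change was 0.66 (SE 0.0638). The exons of XPC overlap those of LSM3 on the opposite strand over 318 bases in GENCODE 29, an antisense gene shares 1140 of the 4798 exonic bases and a further gene on that strand 413, and whether counting used the strand is not given in the sources used here. LSM3 had 64.4 ± 5.02 CPM in n.t. and 59.3 ± 3.85 CPM in maltonis-treated cells (SD, n = 3), and these groups overlap.

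The partners of DDB2 and XPC moved in both directions. DDB1 had a log2 fold change of −0.14 (edgeR FDR = 0.0341), not past the threshold. CUL4A fell by 0.70 on the log2 scale, and CUL4B had a log2 fold change of 0.92. Of the proteins that stabilize XPC, CETN2 fell from 42.3 ± 0.823 to 14.2 ± 1.16 CPM (SD, n = 3), and RAD23B fell by 0.71 on the log2 scale. In the list of 21 further nucleotide excision repair genes, all tested, 6 were higher and 6 lower at an FDR under 0.01. That is 28.6% each, beside 31.9% higher and 32.1% lower of all genes. The median log2 fold change was −0.17, beside 0.01 for all genes. ERCC6 and ERCC5, the transcription-coupled repair factor CSB and the endonuclease XPG, rose by 1.36 and 1.35 on the log2 scale, and RPA2, a subunit of the single-strand binding protein, rose by 0.99. GTF2H4, a subunit of the general repair and transcription factor TFIIH, fell from 21.8 ± 3.71 to 2.31 ± 0.417 CPM (SD, n = 3), and ERCC1, the partner of the endonuclease XPF, from 43.7 ± 5.47 to 6.31 ± 0.548 CPM (SD, n = 3).

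ZMAT3, a zinc finger protein that binds RNA and regulates splicing downstream of p53, had the second largest increase. It stood at 9.69, 12.6 and 14 CPM in n.t. and at 27.6, 37.0 and 36.1 CPM in maltonis-treated libraries. Replicate 1 was the lowest library of both groups. The mean rose 2.77-fold, from 12.1 ± 2.22 to 33.6 ± 5.19 CPM (SD, n = 3), and the log2 fold change was 1.46 (SE 0.154). Within replicates 1, 2 and 3 the log2 differences were 1.51, 1.56 and 1.36.

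Codes in the names of the deposited libraries part replicate 1 from replicates 2 and 3, and the meaning of these codes is not given in the sources used here. The log2 differences within replicate 1 and within replicates 2 and 3 were 0.29 and 0.38 for MDM2, 3.42 and 3.39 for TP53INP1, −0.24 and −0.21 for SESN1, and 0.98 and 0.98 for SESN2. They were −1.04 and −1.03 for BTG2, 1.11 and 0.80 for GADD45A, 0.72 and 0.87 for DDB2, 0.71 and 0.64 for XPC, and 1.51 and 1.46 for ZMAT3. The direction was the same on both sides for all 9 genes.

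Per length, MDM2 and XPC led in both groups. MDM2 had 13.7 ± 0.261 RPKM in n.t. and 17.5 ± 0.346 RPKM in maltonis-treated cells (SD, n = 3), and XPC 9.06 ± 0.369 and 14.3 ± 0.464 RPKM. In n.t. cells SESN1, SESN2, GADD45A, DDB2, BTG2, ZMAT3 and TP53INP1 followed, from 5.52 down to 0.469 ± 0.0495 RPKM, and only the neighbours GADD45A and DDB2 overlapped between their libraries. After maltonis SESN2 was in the third place with 8.58 RPKM, followed by GADD45A with 5.98, while TP53INP1, SESN1 and DDB2, at 4.96, 4.75 and 4.72 RPKM, formed a run in which TP53INP1 overlapped with SESN1 and SESN1 with DDB2. ZMAT3, at 3.48, and BTG2, at 1.11 RPKM, came last. TP53INP1 had gone from the lowest of the 9 to the fifth place by these lengths. With the exons of RefSeq-linked transcripts alone, these places after maltonis did not hold. DDB2, at 12.4 RPKM, then stood above SESN2, at 8.58, and SESN1, at 6.17, above TP53INP1, at 4.96. The order depends on the exons counted in the length, most of all for DDB2, whose 4897 exonic bases shrink to 1870 with the exons of RefSeq-linked transcripts, which raises its level from 2.68 to 7.02 RPKM in n.t. and from 4.72 to 12.4 RPKM in maltonis-treated cells.

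**Figure D3:**
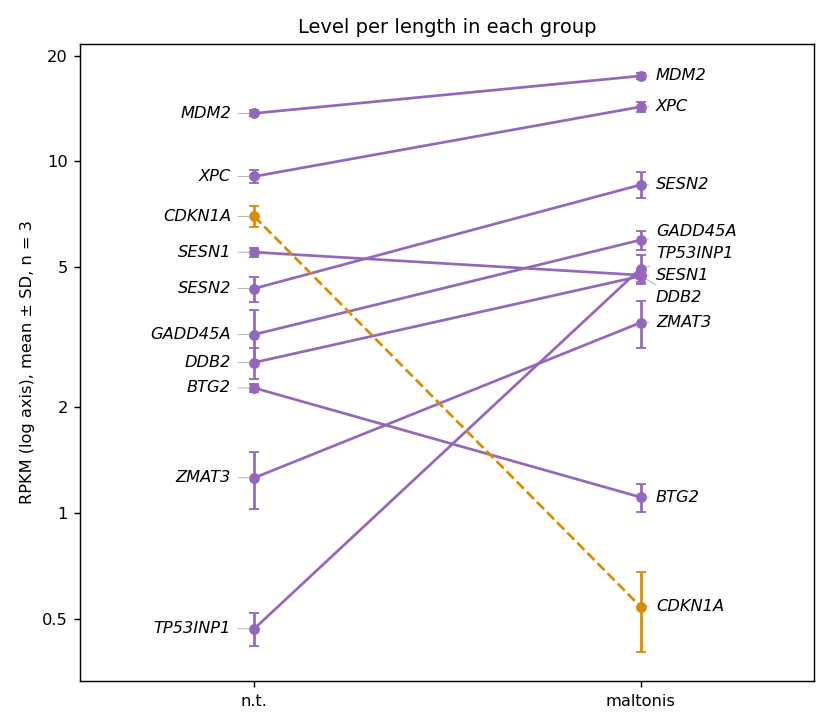
Mean RPKM ± SD (n = 3, log axis) of the 9 genes (violet) and of CDKN1A (dashed, orange) in n.t. and maltonis-treated cells. TP53INP1 climbs from 0.469 to 4.96 RPKM, SESN1 and SESN2 change places, and BTG2 and CDKN1A descend.

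CDKN1A, the cyclin-dependent kinase inhibitor p21 and the best known p53 target, fell while most of the 9 genes rose. It had 431, 741 and 679 counts in n.t. libraries (23.0, 20.4 and 20.5 CPM) and 41, 43 and 44 counts in maltonis-treated ones (2.12, 1.28 and 1.56 CPM), a log2 fold change of −3.73 (SE 0.156).

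In the list of 9, 7 were higher at an FDR under 0.01, beside 31.9% of all genes tested, and BTG2 was lower, beside 32.1%. Their median log2 fold change was 0.82, beside 0.01 for all genes. The libraries of both groups did not overlap for any of the 9, which held for 76.6% of all genes tested, with 7 higher (38.8% of all genes) and 2 lower (37.8%). Of the 9, TP53INP1 and ZMAT3 were also more than 2.5-fold higher, the size the study asked of its regulated genes, beside 9.96% of all genes. None was more than 2.5-fold lower, beside 10.4%. The study also asked for a minimum RPKM in treated cells, which was not applied here. TP53INP1 and ZMAT3, at 4.96 and 3.48 RPKM after maltonis, lay below that minimum by the lengths used here. With the library code as a term in the fit, SESN1 also passed the FDR of 0.01, so that 2 of the 9 were lower.

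**Figure D4:**
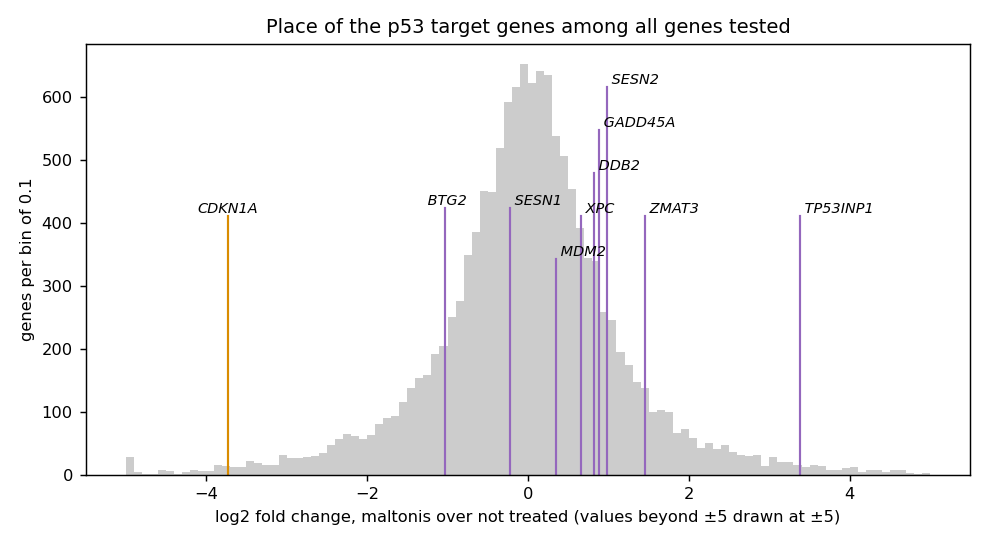
Number of tested genes (vertical axis) by log2 fold change in bins of 0.1 (grey, 13209 genes), with the 9 genes marked in violet and CDKN1A in orange; line heights carry no value. SESN1 and MDM2 fall inside the bulk of the distribution at −0.22 and 0.35, and TP53INP1 lies in its right tail at 3.38.

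The other genes of the pathway were taken from lists by function, and the 4 lists of further p53 targets, with 57 of 64 genes tested, held 24 higher and 17 lower genes at an FDR under 0.01 and 16 that did not pass it. Of all genes tested, 31.9% were higher and 32.1% lower. The median log2 fold change of the 57 genes was 0.23, beside 0.01 for all genes. Of these 57 genes CDKN1A had the lowest log2 fold change. No difference between the lists was tested.

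Among 9 tested targets that act in cell cycle arrest, 7 were higher (77.8%, beside 31.9% of all genes) and CDKN1A was lower (11.1%, beside 32.1%). Their median log2 fold change was 0.99. PLK2, a polo-like kinase induced by stress, rose from 0.444 ± 0.130 to 2.66 ± 0.203 CPM (mean ± SD, n = 3), or by 2.65 in log2. TRIM22, which is also induced by interferon, rose by 2.08, and CCNG2, an unconventional cyclin that is also under FOXO control, by 1.79 on the log2 scale. PLK3 had a log2 fold change of −0.26 (edgeR FDR = 0.101).

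Among 16 tested targets that act in apoptosis, 6 were higher and 8 lower, beside 31.9% and 32.1% of all genes. Their median was −0.25. TNFRSF10D, a decoy receptor for TRAIL, rose from 24.5 ± 1.50 to 151 ± 4.95 CPM (mean ± SD, n = 3), or by 2.62 in log2 (SE 0.0693). FDXR, the mitochondrial ferredoxin reductase, rose by 1.46 on the log2 scale and APAF1, the scaffold of the apoptosome, from a mean of 75.3 to 157 CPM. EI24, a protein of the endoplasmic reticulum with a part in autophagy, fell from 119 ± 2.80 to 9.47 ± 0.354 CPM (mean ± SD, n = 3), for a log2 fold change of −3.64. PERP, a membrane protein of desmosomes, had a log2 fold change of −1.97, and BBC3, which encodes the BH3-only protein PUMA, of −1.66.

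The 9 targets in DNA repair and replication had 3 higher genes (33.3%, beside 31.9% of all genes) and 1 lower gene (11.1%, beside 32.1%). Their median was 0.12. The median was 0.08 without n.t. replicate 3 or maltonis replicate 2 and 0.07 without maltonis replicate 3. POLH, the polymerase that copies past photoproducts, rose from 36.4 ± 1.54 to 84.5 ± 0.927 CPM (SD, n = 3), with a log2 fold change of 1.21. RRM2B, the ribonucleotide reductase subunit under p53 control, rose by 1.01 and FANCC, of the Fanconi anemia core complex, by 0.60 on the log2 scale. ASCC3, a helicase, had a log2 fold change of −1.59.

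The 23 tested targets in metabolism and other roles had 8 higher (34.8%) and 7 lower genes (30.4%), beside 31.9% and 32.1% of all genes. Their median was 0.17, but 0.03 without n.t. replicate 3 and 0.09 without maltonis replicate 1. The lysosomal fucosidase gene FUCA1 rose by 1.73, ANKRA2 by 1.27 and C12orf5, the older symbol of the glycolysis regulator TIGAR, by 1.07 on the log2 scale. DCP1B, a cofactor of mRNA decapping, had a log2 fold change of −3.46, NINJ1, a mediator of plasma membrane rupture, of −2.28, and TP53I11 of −1.48.

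**Figure D5:**
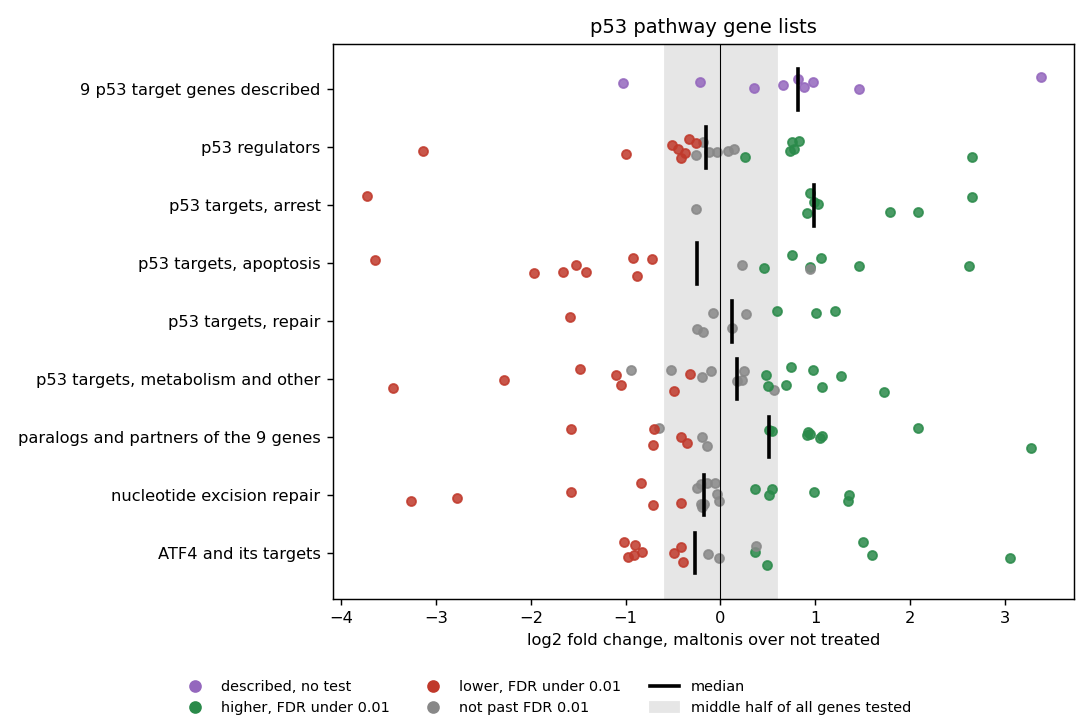
Log2 fold change (horizontal axis) of every tested gene of each list (vertical axis), with the 9 genes described in violet and the others colored by the call at an FDR under 0.01; black bars are medians and the grey band is the middle range of all genes, from the 25th to the 75th percentile. The arrest targets have their median at 0.99 with CDKN1A alone far to the left, while the apoptosis targets spread to both sides of a median of −0.25.

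Of 20 tested regulators of p53, 6 were higher (30.0%) and 8 lower (40.0%), beside 31.9% and 32.1% of all genes tested. Their median log2 fold change was −0.15. HIPK2, a kinase that phosphorylates p53 to promote apoptosis, fell from 143 ± 32.9 to 16.3 ± 1.60 CPM (mean ± SD, n = 3), for a log2 fold change of −3.14. USP7, the deubiquitinase that stabilizes MDM2 and p53, fell from a mean of 177 to 88.9 CPM, and the checkpoint kinase gene CHEK2 from 50.7 to 35.5 CPM. ATM, the kinase that responds to double-strand breaks, rose from 202 ± 8.58 to 347 ± 10.3 CPM (mean ± SD, n = 3), or by 0.78 in log2. PPP1R13L, an inhibitor of p53 in the ASPP family, rose from 0.547 ± 0.322 to 3.25 ± 0.639 CPM (SD, n = 3). The number of lower regulators dropped to 5 without n.t. replicate 2 or n.t. replicate 3 and to 4 without maltonis replicate 1 or maltonis replicate 3. The median was −0.06 without n.t. replicate 2 and −0.03 with scaling by total counts.

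Among the 17 tested paralogs and partners of the 9 genes, 9 were higher (52.9%) and 5 lower (29.4%), beside 31.9% and 32.1% of all genes. Their median was 0.51, and the lower genes numbered 3 without n.t. replicate 2, n.t. replicate 3 or maltonis replicate 2. In a list of 16 genes made of ATF4, which can also drive SESN2 and GADD45A, and its targets, 5 were higher and 8 lower. Of all genes, 31.9% were higher and 32.1% lower. The median of the 16 genes was −0.27. CHAC1, DDIT4 and DDIT3 rose by 3.06, 1.60 and 1.50 on the log2 scale, whereas TRIB3, SLC3A2 and PSAT1 had log2 fold changes of −1.02, −0.98 and −0.91. ATF4 itself, counted among the lower genes, fell by 0.49. The part of this pathway in the change of SESN2 and GADD45A was not tested.

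For each of the 9 genes, the tested gene with the most similar profile was taken as the one at the smallest Euclidean distance between centered log2 CPM values over the 6 libraries, which share the treatment contrast and so favor genes of a like fold change. These were TXNRD1 for MDM2 (distance 0.0352), HIST1H1A for TP53INP1 (0.207), EPB41L4A for SESN1 (0.0365), MBD1 for SESN2 (0.0723), PVT1 for BTG2 (0.0724), PGLYRP1 for GADD45A (0.178), C17orf62 for DDB2 (0.0502), GLUL for XPC (0.0514) and OSBPL11 for ZMAT3 (0.0909). The median distance to all tested genes ranged from 0.798 for SESN1 to 3.90 for TP53INP1.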

How the data were processed

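For each library a table was deposited by the authors that gives raw HTSeq counts by gene symbol. The submitters' processing notes name TopHat, Bowtie2 and the build hg19, while tool versions, annotation and strand setting are not given in the sources used here. Libraries were made from ribosomal RNA-depleted total RNA with a stranded kit. The study calls the 3 libraries of a group biological replicates, but the labels do not say that they came from separate cultures, so p-values measure the spread between these libraries. Replicate libraries differed by more than sampling noise (chi-square per degree of freedom 4.15 to 33.1), so that none was merged with another.

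Counts were fitted in R 4.3.3 with edgeR 4.0.16 (TMM, filterByExpr, quasi-likelihood test, no covariates, all 6 libraries), with Benjamini-Hochberg adjustment over the 13209 genes tested and a threshold of FDR under 0.01, after the study's methods, which name edgeR, TMM and this FDR. Standard errors are the log2 fold change divided by the square root of the F statistic. CPM values use TMM-scaled totals, and RPKM divides them by the summed exon length in GENCODE 29 (GRCh38). Fits were first tested on simulated counts, which had far fewer changed genes than these data and no effect of replicate or library code. That run checks the calculation only and says nothing of the error rate in these data. Alternatives covered scaling, filter, DESeq2 1.42.0, the replicate block, the library code, each library left out, thresholds, offset and gene length. Libraries with the same replicate number deviated together from their group means (r = 0.413, 0.137 and 0.220 across genes for replicates 1, 2 and 3, computed on log2 CPM with an offset of 0.5), each over the minimum of 0.1 set for taking the numbers as pairs. Numbers 2 and 3 also correlated with each other across the groups (r = 0.235 and 0.208). The check thus separates replicate 1 from 2 and 3 but not 2 from 3. Replicate 1 was also the library with the fewest counts in each group, 19385279 in n.t. and 18492154 in maltonis-treated cells. Depth and library code therefore cannot be told apart here.

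The 9 genes, the lists and the tests were chosen with earlier results of these data known. Named beside the 9 genes are, for each list, up to 3 genes with the largest increase and 3 with the largest decrease among those past the threshold, CDKN1A, and the nearest profile of each of the 9. MDM4, BTG1, BTG3, TOB1, TOB2, GADD45B, DDB1, CUL4B, PLK3, ATF4, LSM3 and CPM fall outside this rule or were picked after their values were seen. Some genes are not reported here. The count tables of all 6 libraries were used.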

Additional observations from a re-analysis of the deposited data

How the results depend on the processing

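The alternatives reversed no direction of the 9 genes and no sign of a list median. The balance of higher and lower counts did turn in some settings. With total counts 4902 genes were higher and 3652 lower, against 4213 and 4239. Regulators then had 6 higher and 5 lower genes, against 6 and 8. With the replicate block 4602 genes were higher and 4620 lower, against 4213 and 4239 without it, and the pairing changed no call among the 9 genes. The block, DESeq2 size factors and a minimum of 10 counts kept the 37 results compared within 1.5 times for counts and within the spread between replicates for other values. Scaling by total counts and by the upper quartile moved the median of all genes to 0.13 and 0.10. With total counts the log2 fold changes were 0.47 for MDM2, −0.10 for SESN1, 1.10 for SESN2, −0.91 for BTG2, 0.94 for DDB2 and 0.78 for XPC, and with the upper quartile 0.44 for MDM2, −0.13 for SESN1 and 0.75 for XPC. Under these 2 scalings the medians were −0.03 and −0.06 for p53 regulators, 1.11 and 1.08 for arrest, −0.13 and −0.16 for apoptosis, 0.29 and 0.26 for metabolism, 0.63 and 0.60 for paralogs and partners, and −0.15 and −0.18 for ATF4 targets, with 5 lower regulators and 3 lower paralogs in both. With total counts the repair targets had 5 higher genes and a median of 0.24, and nucleotide excision repair a median of −0.05. Without a filter the metabolism median was 0.23. DESeq2 and an FDR under 0.05 both gave 8 lower paralogs and partners. An FDR under 0.05, or the library code as a term, gave 2 lower genes among the 9. With replicates 2 and 3 alone, MDM2 was at 0.38, the medians of arrest and of paralogs and partners at 1.06 and 0.38, and repair had 2 lower genes. Differences of log2(CPM + 1) were 2.99 for TP53INP1 and −0.84 for BTG2. Requiring a 2.5-fold change as well left 1316 higher and 1369 lower genes in all, 2 and 0 among the 9, 1 and 1 among regulators, 2 and 5 among apoptosis, 1 and 3 among metabolism, 2 and 1 among paralogs and partners, 2 and 3 among nucleotide excision repair and 3 and 0 among ATF4 targets, with 3 higher arrest and 0 higher repair targets. With the exons of basic or of RefSeq-linked transcripts, RPKM in n.t. and treated cells was 14.4 and 18.3 for MDM2, 7.17 and 6.17 for SESN1, 4.46 and 8.27 for GADD45A, 7.02 and 12.4 for DDB2, and 11.3 and 17.9 for XPC. Leaving out each library in turn gave 4 to 8 lower regulators and 3 to 5 lower paralogs and partners, 2 to 4 higher repair targets, medians of −0.21 to −0.06 for regulators, 0.91 to 1.02 for arrest, 0.07 to 0.14 for repair, 0.03 to 0.23 for metabolism, 0.43 to 0.53 for paralogs and partners and −0.32 to −0.22 for ATF4 targets, and 0.32 to 0.35 for MDM2. The cause of these moves was not tested, apart from the scaling, the stricter threshold and the shorter lengths, which act by construction. A change of scaling shifts the log2 fold changes of all genes together. Depth limits genes near the floor, such as GADD45G, PLK2 and PPP1R13L.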
